A study of Mus musculus with 8 samples.

Results

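Striated muscle genes were read in peritoneal tumours of a mouse model of mesothelioma, the cancer of the lining of body cavities. The genes are 39 named components of the contractile machinery of skeletal and heart muscle, found by symbol among the 35275 genes of the deposited count table, where each symbol matched 1 row. They were grouped by role: 12 thick filament genes, 10 thin filament genes, 10 genes of titin, the Z-disc and the M-band, 5 calcium handling genes, and the muscle creatine kinase and myoglobin genes. All 8 tumours arose in mice with floxed Nf2 and Cdkn2a alleles after adenovirus carrying Cre recombinase was injected into the peritoneum. The 3 wild-type tumours, numbered 19, 20 and 127, carried wild-type Pak2 and were primary. The labelled Pak2-null group also carried floxed Pak2 and held 4 primary tumours (13, 14A, 59 and 61) and 1 secondary tumour (14B). Pak2 encodes a p21-activated kinase, and Nf2 encodes merlin, a protein that inhibits such kinases. The study compared the transcriptomes of these genotypes. No promoter for Cre, age, sex or strain is given in the sources used here, and nothing there says that the tumours came from separate animals, so the p-values below measure the spread between these tumours. Tumours 14A and 14B share a number.

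A muscle fibre is a row of sarcomeres, in which thick filaments of myosin pull on thin filaments of actin. Troponin and tropomyosin on the thin filament block myosin until calcium, released from the sarcoplasmic reticulum through the ryanodine receptor, binds troponin C. Many of these proteins exist as isoforms that mark the state of a fibre: embryonic and perinatal forms are replaced at maturity by slow or fast adult forms, and the developmental forms return when muscle regenerates. The mesothelium itself has no sarcomeres.

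The libraries held between 13469851 and 20402401 counts. Pak2 was not lower in the tumours labelled null: its normalised level (CPM, counts scaled to a common library size) was 90.1 to 128 in the wild-type tumours and 131 to 238 in the labelled Pak2-null primary tumours, so the genotype is called by its label throughout. Transcripts of the sex chromosomes moved with the groups only in part. The X-linked Xist was at 26.6 to 459 CPM in the wild-type tumours and at most 1.33 CPM in the labelled null primary tumours. The Y-linked Ddx3y split the wild-type group. It was low in tumours 19 and 20 (1.62 and 1.24 CPM) and at 85.4 to 116 CPM in the other primary tumours, 127 among them. Tumour 127 held both transcripts, with Xist at 26.6 CPM and Ddx3y at 116 CPM. Sex and genotype cannot be told apart for tumours 19 and 20.

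The 39 muscle genes took a far larger part of the RNA in the wild-type tumours. They held 0.470%, 5.28% and 4.71% of all counts in tumours 19, 20 and 127. In the labelled Pak2-null primary tumours 13, 14A, 59 and 61 they held 0.00414%, 0.0129%, 0.0672% and 0.135%. The secondary tumour 14B was at 0.00663%. On the CPM scale the summed level was 4401, 51981 and 47307 in the wild-type tumours and 44.4, 135, 616 and 1293 in tumours 13, 14A, 59 and 61, with 92.6 in 14B. The groups did not overlap, but each was itself wide: the means were 34563 ± 26225 (SD, n = 3) and 522 ± 572 (SD, n = 4), a ratio of 66.2 that became 130 without tumour 61, the highest of its group. Tumour 127, which held both Xist and Ddx3y transcripts, was among the highest for the muscle genes. The part of sex in the muscle values was not tested. Each tumour was ground whole before extraction, so fewer muscle cells and less muscle RNA per cell cannot be told apart.

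**Figure D1:**
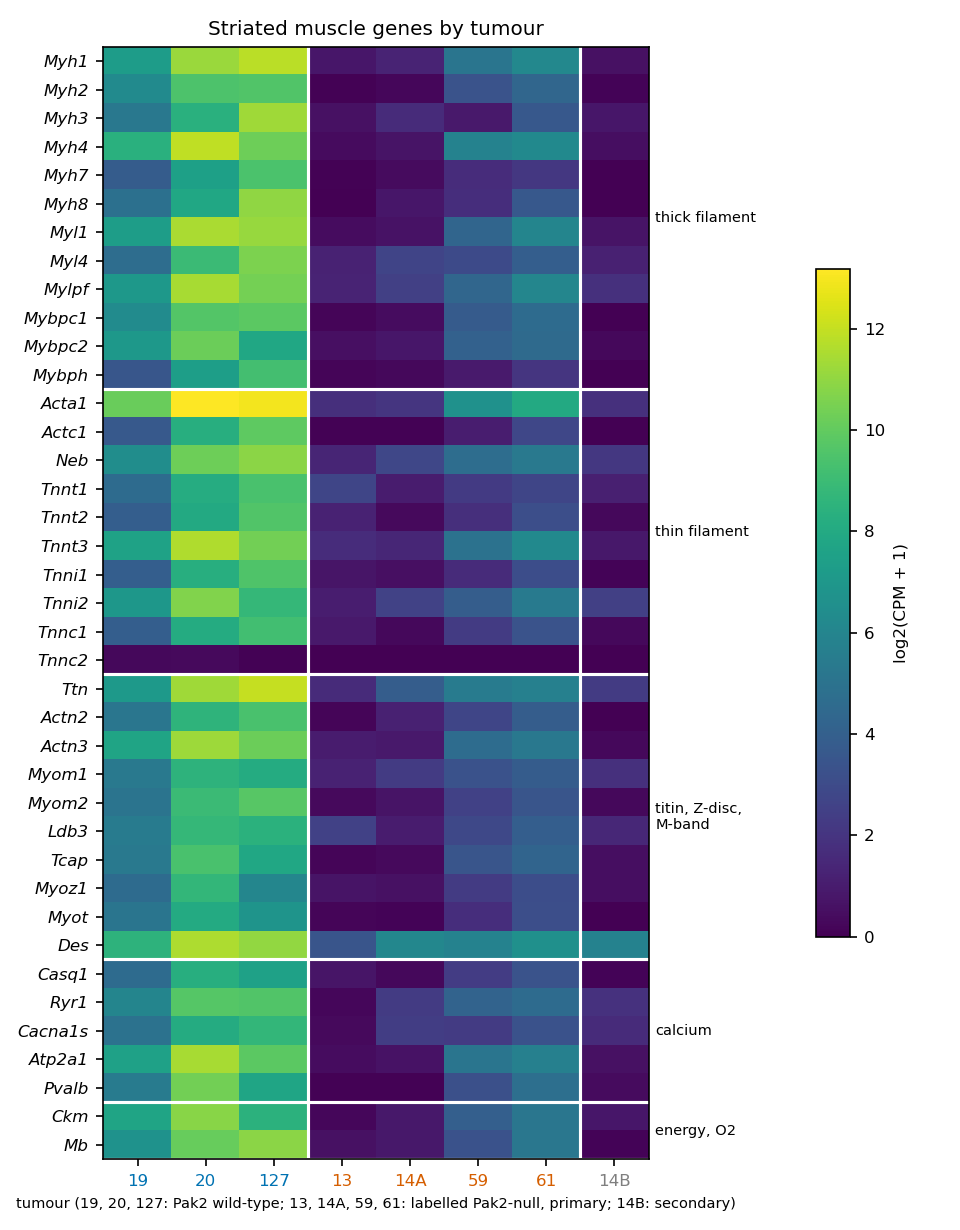
Level of each of the 39 muscle genes (rows, grouped by role) in each tumour (columns) as log2(CPM + 1). Tumours 20 and 127 are the brightest columns, tumour 19 is dimmer than both, and tumours 59 and 61 are brighter than 13, 14A and 14B. Tnnc2 is dark in every tumour.

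In the fit of the 7 primary tumours with edgeR's quasi-likelihood test, 38 of the 39 genes had enough counts to be tested. All 38 had lower values in the labelled Pak2-null tumours, as did 45.5% of all genes tested, yet 0 of the 38 passed the adjusted threshold of 0.05. Their adjusted p-values ran from 0.109 for Tnnt1 to 0.290 for Pvalb, against a background of 0.0714% of the 15412 genes tested that passed. At unadjusted p under 0.05, 38 of 38 were lower, where 8.55% of all genes tested were. All 38 also had every labelled null primary tumour below every wild-type tumour, where 8.93% of all genes did. The 38 genes passed the count filter mainly through the wild-type tumours, so these shares are not like for like with those of all genes. The genes also moved together across tumours and are not 38 separate results. Of the 39, tumour 19 was the lowest wild-type tumour for 38, and tumour 61 the highest labelled null primary tumour for 37. The median log2 fold change of the 38 genes was -6.04, between -8.01 for Myh3 and -4.96 for Des, while the median over all genes tested was 0.06. Other tools drew the line elsewhere. DESeq2 called all 38 lower, with adjusted p-values from 3.44e-08 to 0.00887 (background 5.44% of genes), and limma-voom with sample quality weights called 34 lower, with adjusted p-values from 0.0136 to 0.0721 over the 38 (background 4.59%). When tumour 19 was left out, edgeR called 1 of the 38 lower, Tnnt1, with an adjusted p of 0.0462 (background 0.345% of genes). When 14B was added to the labelled null group it called 5 lower, Tnnt1, Des, Cacna1s, Ldb3 and Myom1, with a lowest adjusted p of 0.0443 (background 1.08%). That fit took 14B as independent of 14A, with which it shares a number, so its p-values may be too small.

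**Figure D2:**
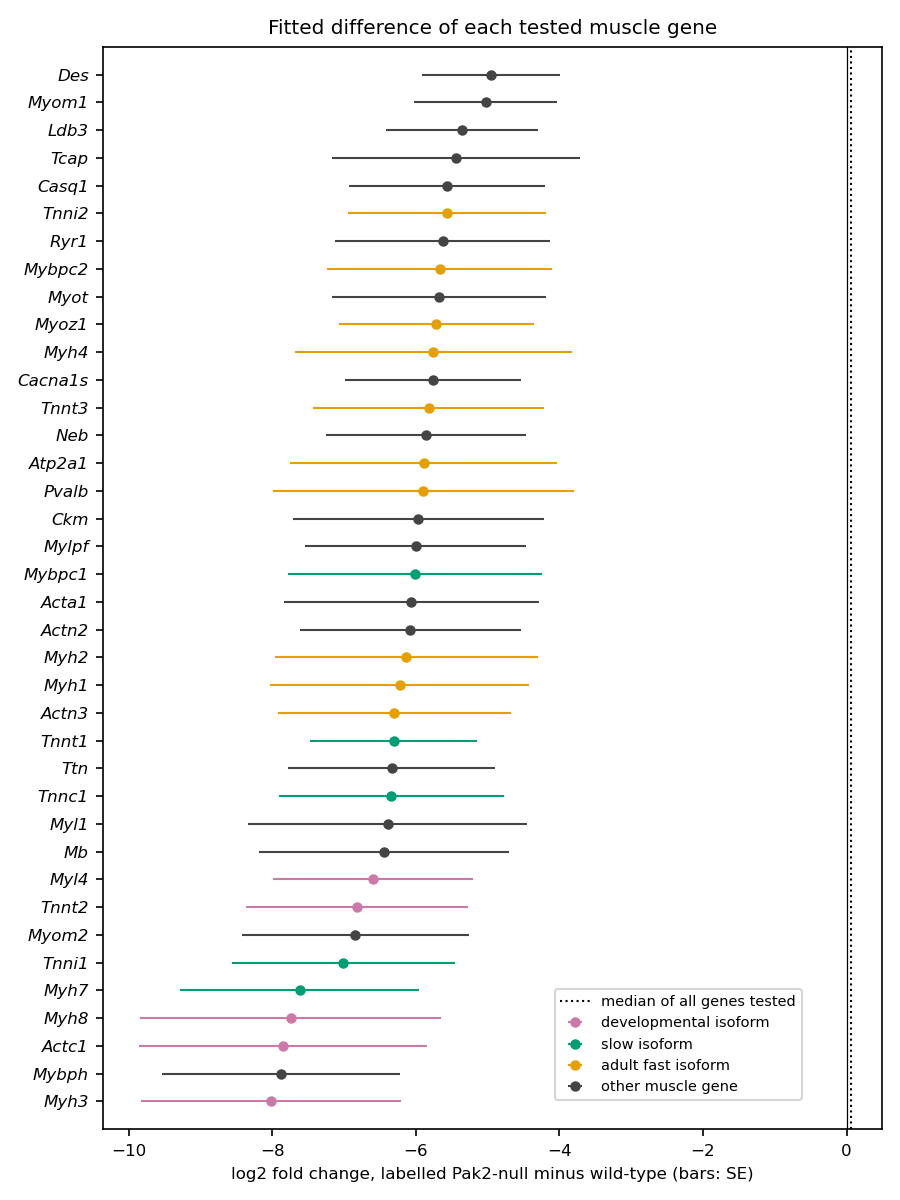
Fitted log2 fold change (labelled Pak2-null minus wild-type, primary tumours) of the 38 tested muscle genes, ordered by size, with bars of 1 standard error and colours for isoform class. Every point lies between -8.01 and -4.96, the developmental isoforms lie toward the left, and the dotted line marks the median of all genes at 0.06.

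The 5 fast and developmental myosin heavy chain genes stand in a row on chromosome 11 in the deposited coordinates (GRCm38): Myh3 (chr11:67078300-67102291), Myh2 (chr11:67171027-67197517), Myh1 (chr11:67200052-67224575), Myh4 (chr11:67238029-67260446) and Myh8 (chr11:67277124-67308634), all on the plus strand. Slow Myh7 is at chr14:54970688-54994634 on the minus strand. The skeletal actin gene Acta1 is at chr8:123891767-123894736 and the cardiac actin gene Actc1 at chr2:114047282-114053548, both on the minus strand. The 250 bases before the RefSeq start of Acta1, Actc1, Myh3 and Myh4 (GRCm38.p6) are shown because these are an adult and a developmental form of the main filament proteins, all lower together in the labelled null tumours. They lie at chr8:123894776-123895025 (minus), chr2:114052876-114053125 (minus), chr11:67078050-67078299 (plus) and chr11:67237562-67237811 (plus), and the RefSeq start need not be that of the deposited table. Capitals mark E-boxes, the 6-base motif CANNTG read by myogenic factors such as MyoD, and CArG boxes, the 10-base motif read by serum response factor.
Acta1: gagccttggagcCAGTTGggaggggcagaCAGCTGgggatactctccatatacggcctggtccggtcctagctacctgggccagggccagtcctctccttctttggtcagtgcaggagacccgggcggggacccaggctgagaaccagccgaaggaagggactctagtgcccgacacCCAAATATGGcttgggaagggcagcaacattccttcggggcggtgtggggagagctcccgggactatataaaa
Actc1: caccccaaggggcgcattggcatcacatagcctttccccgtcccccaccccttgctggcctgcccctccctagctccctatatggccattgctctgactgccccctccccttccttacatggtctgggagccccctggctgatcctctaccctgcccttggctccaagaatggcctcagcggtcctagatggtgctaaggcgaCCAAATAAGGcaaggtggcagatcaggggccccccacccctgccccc
Myh3: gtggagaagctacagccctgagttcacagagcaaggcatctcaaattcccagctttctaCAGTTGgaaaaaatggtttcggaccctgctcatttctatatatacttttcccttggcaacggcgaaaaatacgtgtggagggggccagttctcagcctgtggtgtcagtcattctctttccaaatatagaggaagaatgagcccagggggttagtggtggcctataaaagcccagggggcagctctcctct
Myh4: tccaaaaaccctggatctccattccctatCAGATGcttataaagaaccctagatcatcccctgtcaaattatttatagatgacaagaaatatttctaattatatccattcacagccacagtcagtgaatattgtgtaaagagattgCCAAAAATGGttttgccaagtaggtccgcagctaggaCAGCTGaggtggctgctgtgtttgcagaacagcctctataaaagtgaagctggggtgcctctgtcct

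Windows of 250 bases before and 50 after a RefSeq start were at hand for 31 of the 39 genes, 38 windows in all, and were searched on both strands. An E-box was in 81.6% of the muscle gene windows and in 72.3% of all 32851 windows. A CArG box was in 15.8% (6 windows of 5 genes) against 1.63% of all windows, a MEF2 site in 13.2% against 3.19%, the M-CAT motif CATTCC in 28.9% against 14.7%, and the TATA box TATAAA in 26.3% against 13.6%. Of the matches in muscle gene windows, 3 MEF2 sites overlapped a TATA box, and no other motifs overlapped. In the stretches printed above, Acta1, Actc1 and Myh4 each held 1 CArG box and Myh3 held 0, while E-boxes numbered 2 in Acta1, 0 in Actc1, 1 in Myh3 and 2 in Myh4. These matches describe the letters of the windows and no binding was measured.

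Among thick filament genes, all 12 had lower values in the labelled Pak2-null tumours. The median of their log2 fold changes was -6.31. Mybph, myosin-binding protein H, was at 10.4, 165 and 607 CPM in tumours 19, 20 and 127 and at 0.124, 0.206, 0.926 and 3.12 CPM in tumours 13, 14A, 59 and 61. Its highest labelled null tumour stayed under its lowest wild-type tumour, with a log2 fold change of -7.88 ± 1.65 (SE, edgeR adjusted p = 0.118). In the GENCODE M21 annotation 49.9% of its exonic bases also lie in exons of Adora1 on the opposite strand. The strand setting of the counting is not given here, so reads of such pairs cannot be told apart. Myl4, the embryonic and atrial essential light chain, was at 24.8, 507 and 1513 CPM in the wild-type tumours and at 1.36, 5.50, 6.79 and 14.3 CPM in tumours 13, 14A, 59 and 61. The lowest wild-type tumour was again 19, and the highest labelled null tumour was again 61 (log2 fold change -6.59 ± 1.39, edgeR adjusted p = 0.118). The remaining light chain and binding protein genes, Myl1, Mylpf, Mybpc1 and Mybpc2, had log2 fold changes between -6.39 and -5.66.

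The myosin heavy chains are the motors, and their isoform sets the speed of a fibre. Embryonic Myh3 was at 37.1, 325 and 2491 CPM in tumours 19, 20 and 127 and at 0.495, 2.11, 0.864 and 11.1 CPM in 13, 14A, 59 and 61. Perinatal Myh8 was at 28.0, 226 and 2037 CPM and at 0, 0.720, 2.28 and 11.1 CPM in the same order. Slow Myh7 was at 13.4, 179 and 693 CPM and at 0.0619, 0.308, 2.22 and 3.35 CPM. For these 3 isoforms tumour 127 was the highest by several fold, and no labelled null tumour reached tumour 19. Their log2 fold changes were -8.01 ± 1.81, -7.74 ± 2.09 and -7.61 ± 1.66 (edgeR adjusted p = 0.123, 0.161 and 0.123). The adult fast isoform Myh4 was at 323, 3830 and 1240 CPM in the wild-type tumours and at 0.310, 0.617, 55.2 and 75.6 CPM in the labelled null primary tumours. Here tumour 20 was the highest and tumours 59 and 61 stood far above 13 and 14A. Fast Myh1 was at 154, 2316 and 3511 CPM and at 0.743, 1.49, 33.1 and 70.3 CPM. Fast Myh2 was at 79.1, 707 and 758 CPM and at 0.0619, 0.154, 9.20 and 19.7 CPM. The adult fast chains had log2 fold changes of -5.76 ± 1.93 (Myh4), -6.23 ± 1.81 (Myh1) and -6.13 ± 1.83 (Myh2), with edgeR adjusted p-values of 0.258, 0.186 and 0.197.

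Reads can be shared between such similar genes. Of all 100-base stretches of each transcript, 9.46% in Myh1, 9.17% in Myh2, 5.17% in Myh8 and 3.85% in Myh4 were found in another of the 6 chains, and 0% in Myh3 and Myh7. Summing the 6 chains to 1 row left 33 of 33 muscle rows lower at unadjusted p under 0.05, where 1313 of all 15407 rows tested were.

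Of the thin filament genes, 9 of 10 were tested, all 9 had lower values in the labelled null tumours, and their median log2 fold change was -6.31. Tnnt1, the slow skeletal troponin T that ties troponin to tropomyosin, was at 23.3, 288 and 669 CPM in tumours 19, 20 and 127 and at 5.82, 0.976, 3.70 and 5.78 CPM in 13, 14A, 59 and 61. It was the muscle gene with the lowest adjusted p (log2 fold change -6.31 ± 1.16, edgeR adjusted p = 0.109), and tumour 13, low for most muscle genes, was at the level of tumour 61 here. Tnni1, the slow skeletal troponin I that holds contraction off, was at 14.2, 306 and 751 CPM and at 0.681, 0.463, 2.04 and 7.80 CPM. The 2 groups did not overlap (log2 fold change -7.01 ± 1.56, edgeR adjusted p = 0.123). The other tested thin filament genes, among them skeletal actin Acta1 and the giant filament ruler nebulin (Neb), had log2 fold changes between -7.85 (Actc1) and -5.57 (Tnni2). Per kilobase of gene length, Acta1 was the most abundant muscle gene in tumours 19, 20, 127, 59 and 61, at 806, 6413, 5372, 69.6 and 176 CPM per kb. In tumours 14A and 14B that place was held by Des, at 22.3 and 18.9 CPM per kb, and in tumour 13 by Tnnt1, at 5.50 CPM per kb.

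Tnnc2, the fast skeletal troponin C, was the exception. It had 5, 4 and 1 counts in tumours 19, 20 and 127 and 0 in each of the other 5 tumours, too few to test, while the genes of its fast partners Tnni2 and Tnnt3 reached 1626 and 3139 CPM in tumour 20. In the GENCODE M21 annotation 592 of its 800 exonic bases, 74.0%, overlap exons of Ube2c on the opposite strand. The deposited length of Tnnc2 is 700 bases, and the annotation behind the counts is not given here. The part of this overlap in the low count was not tested.

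Titin, the Z-disc and the M-band hold the filaments in register, and all 10 of their genes had lower values (median -5.70 on the log2 scale). Des, the intermediate filament desmin that links neighbouring Z-discs and is also made by smooth muscle, was at 361, 2990.3 and 2069 CPM in tumours 19, 20 and 127 and at 9.91, 67.4, 55.2 and 97.8 CPM in 13, 14A, 59 and 61. It had the smallest difference of the 38 tested genes (log2 fold change -4.96 ± 0.96, edgeR adjusted p = 0.113), and tumour 14A did not trail tumour 59 as it did for most muscle genes. Myom1, the M-band protein myomesin 1, was at 39.6, 369 and 278 CPM and at 1.36, 3.85, 9.13 and 13.4 CPM. The log2 fold change was -5.03 ± 0.99 (edgeR adjusted p = 0.114). The other 8 genes lay between -6.84 for Myom2 and -5.36 for Ldb3, with titin itself (Ttn), the molecular spring of the sarcomere, at -6.33.

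All 5 calcium handling genes had lower values (median -5.77 on the log2 scale). Cacna1s, the voltage sensor of the muscle membrane, was at 30.0, 270.3 and 420 CPM in tumours 19, 20 and 127 and at 0.248, 4.21, 3.95 and 9.01 CPM in 13, 14A, 59 and 61 (log2 fold change -5.77 ± 1.23, edgeR adjusted p = 0.118). Casq1, the calcium store protein of the fast sarcoplasmic reticulum, was at 23.5, 299 and 187 CPM and at 0.681, 0.206, 4.01 and 9.30 CPM (log2 fold change -5.57 ± 1.37, edgeR adjusted p = 0.139). In both genes tumour 19 was the lowest wild-type tumour and still above tumour 61. The release channel Ryr1, the calcium pump Atp2a1 and the fast-fibre calcium buffer parvalbumin (Pvalb) lay between -5.89 and -5.63.

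Both energy and oxygen genes had lower values. Mb, the oxygen store myoglobin, was at 105, 1087 and 1908 CPM in tumours 19, 20 and 127 and at 0.495, 0.822, 9.13 and 36.9 CPM in 13, 14A, 59 and 61 (log2 fold change -6.44 ± 1.74, edgeR adjusted p = 0.161). Ckm, the muscle creatine kinase that regenerates ATP, was at 204, 1827 and 349 CPM and at 0.186, 0.771, 14.8 and 34.8 CPM (log2 fold change -5.96 ± 1.75, edgeR adjusted p = 0.191). Mb was highest in tumour 127 and Ckm in tumour 20. Exons of Gm49540 on the opposite strand overlap 27.6% of the exonic bases of Mb, those of Apol6 overlap 4.29% of Mb, and single opposite-strand genes overlap 20.0% of Cacna1s, 21.9% of Atp2a1 and 15.5% of Ckm. Across the tested genes the gap between the groups, the lowest wild-type tumour over the highest labelled null primary tumour, ran from 1.52-fold for Tnnc1 to 5.86-fold for Ckm.

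The wild-type tumours were not alike. Tumour 19 was the lowest of the 3 for 38 of the 39 genes, the exception being Tnnc2, and it was above tumour 61 for all 39. Tumours 20 and 127 had nearly the same summed level but a different make-up. Tumour 127 was above 20 for 5 of 5 developmental isoforms (Myh3, Myh8, Myl4, Tnnt2, Actc1) and 5 of 5 slow isoforms (Myh7, Tnnt1, Tnni1, Tnnc1, Mybpc1). Tumour 20 was above 127 for 9 of 11 adult fast isoforms, all but Myh1 and Myh2. Among the 9 is Tnnc2, which rests on only 4 counts in tumour 20 and 1 in tumour 127. The CPM ratio of 127 to 20 was 9.01 for Myh8 and 7.67 for Myh3, while that of 20 to 127 was 6.28 for Myoz1, a Z-disc protein of fast fibres, and 6.16 for Pvalb. These are values of 2 single tumours, with no replicate of either pattern.

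As shares of the summed length-scaled level of the 6 myosin heavy chains, Myh3 and Myh8 together made up 10.2% in tumour 19, 7.23% in tumour 20 and 42.2% in tumour 127. The exact binomial 95% intervals of the count shares were 9.73% to 10.8%, 7.12% to 7.41% and 42.0% to 42.4%, and they cover counting error only. The adult fast chains Myh1, Myh2 and Myh4 made up 87.8%, 90.5% and 51.5% in the same tumours. Of the labelled null tumours, 61 and 59 had 3311 and 1667 heavy chain counts, and the developmental share was 11.6% in tumour 61 (interval 10.6% to 12.8%) and 3.03% in tumour 59 (2.29% to 4.0%), so tumours 19, 20, 59 and 61 were mainly adult fast and 127 was mixed. Tumours 14A, 13 and 14B had only 105, 27 and 17 heavy chain counts, and their developmental shares of 52.5%, 29.8% and 41.3% carry intervals of 42.4% to 62.2%, 13.8% to 50.2% and 18.4% to 67.1%. The same contrast between 127 and the other well-covered tumours was seen in other isoform families on the per kilobase scale. Slow Tnni1 made up 42.2% of troponin I in tumour 127 and between 4.52% and 7.33% in 19, 20, 59 and 61. Cardiac Actc1, the actin of fetal muscle, was 10.6% of the 2 striated actins in 127. It was 3.17% in 20, 0.994% in 19, 1.07% in 59 and 2.26% in 61. Mybpc1 was 78.9% of its pair with Mybpc2 in 127 against 36.1% and 38.7% in 19 and 20. In 59 and 61 Mybpc1 was 42.4% and 49.2% of the pair.

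**Figure D3:**
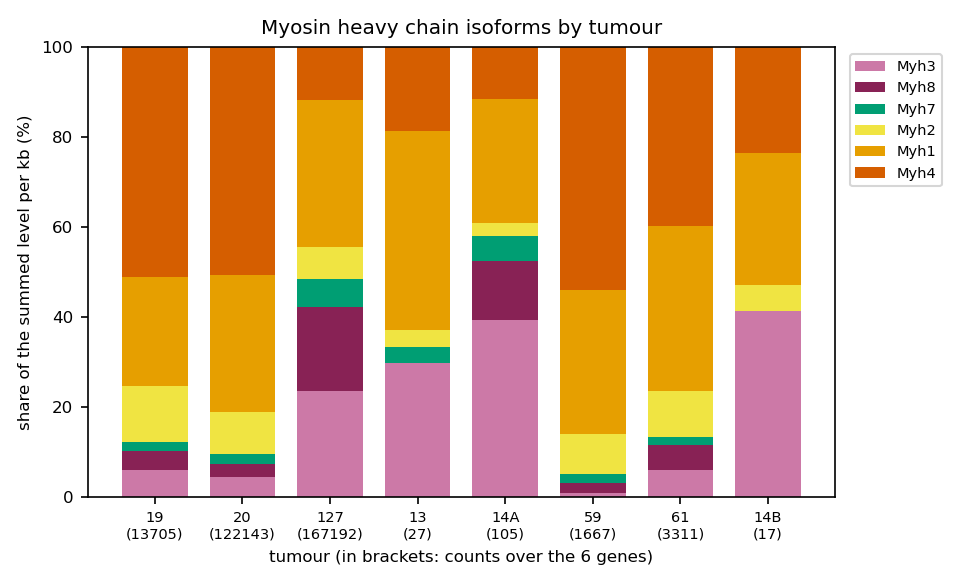
Share of each of the 6 myosin heavy chains in their summed level per kilobase (percent), 1 bar per tumour, with the counts over the 6 genes in brackets. Myh3 and Myh8 make up 42.2% in tumour 127 and 7.23% in tumour 20, and the bars of 13, 14A and 14B rest on 27, 105 and 17 counts.

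The labelled Pak2-null primary tumours also differed among themselves. Tumour 61 was the highest of the 4 for 37 of 39 genes and tumour 59 the second for 34, and both lay above both 13 and 14A for 34 genes. At or under 3 counts, the floor used here (0.186 CPM in tumour 13), were 13 of the 39 genes in tumour 13 and 5 in 14A, so low levels in these tumours are near the limit of detection.

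The secondary tumour 14B can be set beside 14A, with 1 sample each and no test. It was below 14A for 32 of 39 genes and above it for 6, with 8 genes at 0 counts (a limit of 0.311 CPM) and 18 at 3 counts or fewer. Of the 38 tested genes 14 were lower in 14B by more than 2-fold, where 7.09% of all genes were, and 1, Pvalb, was higher, where 8.89% were. Pvalb had 3 counts in 14B and 1 in 14A, both at or under the floor of 3 counts. The median difference in log2 CPM (prior count 2) was -0.72 over these 38 genes and 0.01 over all genes, within a range of -3.54 to 1.32. The 38 genes passed the count filter mainly through the wild-type tumours, and many were near the floor in 14B. That floor was 0.311 CPM in 14B and 0.154 CPM in 14A. The shares and medians of the muscle genes are therefore not like for like with those of all genes.

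Most genes of the same pathway outside the 39 had lower values too, and 0 of any list passed edgeR's adjusted threshold. Many genes of these lists also passed the count filter through the wild-type tumours, so their shares are not like for like with those of all genes. Of 51 other sarcomere genes tested, 40 were lower at unadjusted p under 0.05 (8.55% of all genes tested) and 0 higher (4.39% of all genes), and the median of the 51 log2 fold changes was -5.28. Lmod3, which seeds thin filaments, had -7.12 ± 1.32 and the myosin chaperone Unc45b had -4.20 ± 0.71 (edgeR adjusted p = 0.109 and 0.0990). Of 25 other genes of calcium release and excitation 21 were lower, with a median of -4.72, Tmem38a, a counter-ion channel of the reticulum, being at -5.12 ± 0.93 (edgeR adjusted p = 0.108). Of 21 other energy genes 17 were lower, with a median of -4.21, Pgam2, the muscle phosphoglycerate mutase, being at -4.80 ± 0.83 (edgeR adjusted p = 0.103). The log2 fold change was above 0 for 3 of the 51 sarcomere genes (Myh13, Tnni3 and Fhl3), 1 of the 25 calcium genes (Asph) and 1 of the 21 energy genes (Ckb), all named after their values were seen. Of these, Myh13, a myosin of the eye muscles, had the highest, 1.93 ± 1.34 (edgeR adjusted p = 0.591), with 10.6 CPM in tumour 14A and at most 1.02 CPM in any other primary tumour.

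Most regulators of muscle genes in myoblasts had lower values as well. Of 16 myogenic regulators tested, 13 were lower at unadjusted p under 0.05, and of 10 fetal receptor and membrane genes 10 were, where 8.55% of all genes tested were. The other way lay Pax3, a factor of muscle progenitors, and Mef2a, a partner of the myogenic factors, with log2 fold changes of 0.22 ± 2.04 and 0.25 ± 0.53 (edgeR adjusted p = 0.977 and 0.875). Both are named after their values were seen, and Pax3 was highest in tumours 14A and 14B, at 23.2 and 17.0 CPM, against 12.4 CPM in tumour 127. The summed levels of the regulators, 351 to 3619.8 CPM in the wild-type tumours and 303 to 601 CPM in the labelled null primary tumours, overlapped. Mef2a and Mef2d made up much of the labelled null sums, at 109 to 333 and 96.6 to 173 CPM there. In the wild-type tumours they were at 90.6 to 255 and 109 to 187 CPM. For 11 of the 16 tested regulators every labelled null primary tumour was below every wild-type tumour, as for 8.93% of all genes. Myod1, the founding myogenic factor, was at 9.09, 102 and 338 CPM in tumours 19, 20 and 127 and at 0, 0.154, 0.556 and 2.77 CPM in 13, 14A, 59 and 61. Myog, myogenin, which drives differentiation, was at 17.6, 267 and 856 CPM and at 0.0619, 0, 1.60 and 5.60 CPM. Pax7, the marker of muscle stem cells, was at 0.788, 27.5 and 67.4 CPM and at 0, 0, 0.123 and 0.116 CPM. Each was highest in tumour 127 and next in 20, and 14B had 0 counts of all 3. Myf6, the factor most abundant in mature muscle, was instead higher in tumour 20 (57.9 CPM) than in 127 (32.3 CPM), and Myf5 was at 23.3 and 16.5 CPM. Chrng, the fetal acetylcholine receptor subunit, was at 3.01, 42.8 and 199 CPM in the wild-type tumours and at most 1.44 CPM in the labelled null primary tumours, and Chrnd at 3.66, 44.9 and 183 CPM against at most 2.02. For 6 of the 10 tested genes of this list every labelled null primary tumour was below every wild-type tumour, as for 8.93% of all genes. The groups overlapped for Chrna1, with 55.3 CPM in tumour 59 against 12.9 CPM in tumour 19, and, among genes named after their values were seen, for Chrnb1, Dmd and Ncam1.

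Markers listed for other tissues moved with the groups in part. Of 5 tested cardiac markers 3 were lower (Myl3, Myh6 and Myl2) and Nppb was higher at unadjusted p under 0.05. Of all genes tested 8.55% were lower and 4.39% higher. Myl3, Myh6, Myl2 and Tnni3 also stand among the other sarcomere genes above, so their values are counted in both lists. Tnni3, the cardiac troponin I, went the other way (log2 fold change 1.02 ± 0.71, edgeR adjusted p = 0.591). The untested Mybpc3 and Ryr2 are also in the sarcomere and calcium lists. The summed cardiac list was at 16.0 to 169 CPM in the wild-type tumours and 8.22 to 25.1 in the labelled null primary tumours. The heart-defining Nkx2-5 and Nppa had at most 1 and 2 counts in any tumour and Myl7 at most 1, and Ryr2 was at 0 in the wild-type tumours. Mybpc3, Gata4 and Tbx5 also had too few counts to test. Of 9 tested smooth muscle markers 6 were lower (median -1.90 on the log2 scale), with summed levels of 1105 to 1786 CPM against 175 to 980.0. Of 4 tested blood markers 4 were lower (177 to 2880.3 CPM against 14.4 to 106), and of 9 adipocyte markers 2 were (254 to 1419 CPM against 79.0 to 516). Of 13 mesothelial markers 0 were lower or higher by the same threshold, with a median of -0.63 and overlapping sums of 47.7 to 356 CPM and 12.9 to 383. The summed muscle level was lowest among wild-type tumours in 19, where blood markers were highest, at 2880.3 CPM. The part of smooth muscle, blood and fat in the muscle values was not tested.

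**Figure D4:**
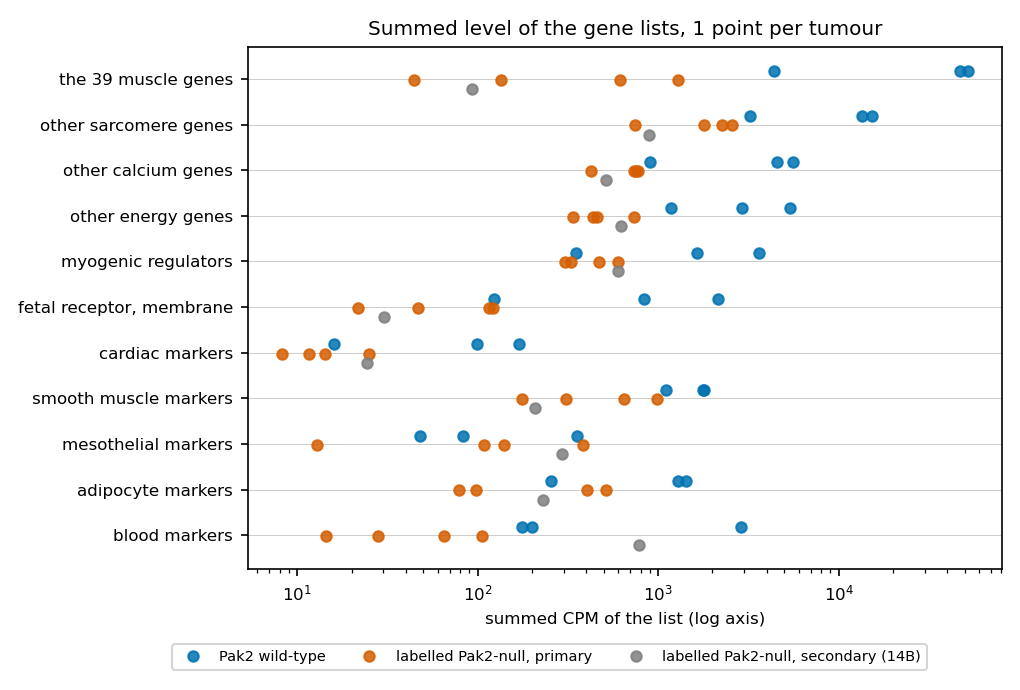
Summed CPM (log axis) of the 39 muscle genes and of 10 other gene lists, 1 point per tumour, coloured by group. The muscle genes span 44.4 to 51981 CPM with no overlap between primary groups, while mesothelial marker sums overlap (47.7 to 356 against 12.9 to 383).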

How the data were processed

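Tumours were chopped, ground in liquid nitrogen and extracted, and Novogene made mRNA-enriched libraries, per the labels' protocols. The deposited values are raw read counts per gene made by the authors with STAR and HTSeq on GRCm38/mm10, per the submitters' processing notes. Versions, annotation, strand setting and filters: not given in the sources used here. Gene lengths and coordinates (other, non-measured columns) came from the same deposited table. Exon overlaps came from GENCODE M21, where 27 of the 39 genes had the same coordinates as in the deposited table. Groups came from the labels, 0 columns belonged to other samples, and rows naming no gene numbered 0.

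The main test was edgeR 4.0.16 (R 4.3.3), quasi-likelihood, TMM factors, filterByExpr (minimum count 10, minimum total 15), Benjamini-Hochberg adjustment over the 15412 genes tested. SE is the log2 fold change over the square root of F. CPM was scaled by the TMM factors of all 8 tumours and by each tumour's count over tested genes. DESeq2 1.42.0 and limma 3.58.1 were alternatives, beside other normalisations, no low-count filter, other sample sets, leaving out each tumour, and summed myosin heavy chains. The edgeR step was tested on simulated data. Depths were 13469851 to 20402401 counts. On the CPM scale above, a floor of 3 counts lay at 0.139 to 0.311 CPM. Intervals and floors cover counting error only.

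Values in every primary tumour are given for the 2 genes with the lowest p in each role group and the 6 myosin heavy chains. From each other list at most 4 genes of lowest p are named, plus set regulators and receptor subunits. Other genes named were chosen after their values were seen. The genes and lists were chosen with earlier results of these data known. Promoter sequences came from RefSeq (GRCm38.p6), matched by symbol.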

Additional observations from a re-analysis of the deposited data

Results flagged for a closer look

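In the 4 labelled Pak2-null primary tumours, the summed level of the other calcium release and excitation genes had a sample far from the rest. Tumour 14A was at 424 CPM against 735 to 769 CPM in tumours 13, 59 and 61, and on the log2 scale its gap to the nearest was 0.925 of the whole range. Of 50 groups examined in this way 1 was singled out, and chance singles out about 1 in 20 groups.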

How the results depend on the processing

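Over 16 alternatives, 0 of 602 log2 fold changes of muscle genes changed direction, 524 stayed on their side of the adjusted threshold and 78 moved past it. The number of genes passing the adjusted threshold, 11 in the edgeR fit, was 1149 with DESeq2 (adjusted p missing for 518 genes), 950 with limma-voom, 4 with all 8 tumours in 3 groups and 191 with 14B counted as Pak2-null. The number of muscle genes passing, 0 in the edgeR fit, was 38 with DESeq2, 34 with limma-voom and 5 with 14B counted as Pak2-null. The fit with 14B counted as Pak2-null took 14A and 14B as independent, though they share a number. Leaving out each primary tumour in turn gave 0 to 59 genes and 0 to 1 muscle genes. The genes numbered 59 without tumour 19, 8 without 14A, 1 without 127, and 0 without 20, 13, 61 or 59. The cause was not tested. At unadjusted p under 0.05, 36 muscle genes were lower without tumour 20, 37 without 59 and 38 without any other. Of all genes tested, 1057 of 16005 were lower without tumour 20 and 1122 of 15164 without 59. They were 1536 of 15926 without 19, 1047 of 16061 without 127 and 1222 of 15214 without 13. Without 14A they were 1517 of 15086, and without 61 they were 1264 of 15121. The median log2 fold change of the muscle genes lay between -7.20 without tumour 61 and -5.63 without tumour 13. The ratio of summed means, examined under alternatives chosen after seeing the data, lay between 49.5 without tumour 20 and 130 without tumour 61. Against the mean of the 4 labelled null primary tumours in place of 14A, the median difference of 14B over all 39 genes was -2.53 instead of -0.61. No paired analysis was possible because the wild-type and labelled null groups share no replicate number, and the labelled null primary and secondary groups share only number 14, with 1 tumour each. Tumours 13, 14A and 14B, with 717, 2627 and 893 counts over the 39 genes, limit what can be read of single genes there.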
